A study of Mus musculus with 8 samples.

Results

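Open chromatin 24 hours after the start of Klf4 induction was set against that at 12 hours in mouse acute myeloid leukaemia cells. The comparison rests on 4 of the 8 ATAC-seq libraries of the series, 2 at 24h and 2 at 12h, and the other 4, at 0h and 6h, served only to show what the same sites looked like earlier. Peaks on the 19 autosomes and X of the 4 lists were merged where they overlapped by at least 1 bp, which gave 26662 regions, against 32720 when all 8 lists were merged. A region was called gained when both 24h libraries and neither 12h library had a peak in it, and lost in the reverse case. There were 120 gained regions, 2234 lost regions and 11155 regions called in all 4 libraries.

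All libraries came from GFP-positive leukaemia cells sorted from the bone marrow of leukaemic mice, carrying the MLL-AF9 fusion oncogene and TetO-Klf4, a Klf4 transgene under a doxycycline-responsive promoter. The labels give the strain as C57BL/7 and name the groups only by time, 0h, 6h, 12h and 24h. They give no age, no clone and no second genotype or vehicle arm, and they do not say whether the 2 libraries of a time came from separate mice, so that the spread between them may be technical. With no uninduced arm at each time, the action of Klf4 and the passing of the hours cannot be told apart.

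KLF4 is a zinc-finger transcription factor of the KLF family, which binds GC-rich CACCC boxes and is known in blood for promoting monocyte differentiation and for slowing the cell cycle. MLL-AF9 drives leukaemia by sustaining a self-renewal programme of genes such as Hoxa9, Meis1 and Myb. ATAC-seq reads open chromatin by the insertion of a transposase. Promoters are open in most cell types, while distal sites, many of them enhancers, are open in fewer and lose or gain accessibility as transcription factors leave or arrive.

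Promoters that lay under regions of each kind are shown first, since gained, lost and kept regions differed in how often they covered one. Each sequence is the 250 bases before a gene's start, 5′ to 3′ on the gene's strand, from RefSeq on GRCm38.p6, the assembly that mm10 also names. Capitals mark matches to the KLF motif CCNCNCCC on either strand. Git1 is among the 10 strongest gained regions and Tmem231 and Castor2 are among the 10 strongest lost regions, where strength is the mean rank of a region's fold enrichment within the 2 lists that call it. Tet2, Adam8, Kit and Irf4 were chosen after their values were seen, as promoters of known blood genes with a gained or a lost region, and Klf4 is the induced gene, with its promoter called in all 4 libraries.
Git1, gained, chr11:77493038-77493287, plus strand: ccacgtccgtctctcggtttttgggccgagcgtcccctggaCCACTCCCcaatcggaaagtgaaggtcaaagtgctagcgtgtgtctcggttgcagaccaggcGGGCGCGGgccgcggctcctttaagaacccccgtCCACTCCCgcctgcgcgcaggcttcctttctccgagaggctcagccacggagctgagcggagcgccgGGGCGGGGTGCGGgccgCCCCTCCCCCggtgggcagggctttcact
Tet2, gained, chr3:133544391-133544640, minus strand: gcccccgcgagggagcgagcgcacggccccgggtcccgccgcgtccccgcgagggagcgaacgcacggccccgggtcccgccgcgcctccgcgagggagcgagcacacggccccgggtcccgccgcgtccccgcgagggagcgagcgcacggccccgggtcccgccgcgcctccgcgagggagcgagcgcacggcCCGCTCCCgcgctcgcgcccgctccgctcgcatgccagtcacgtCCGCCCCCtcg
Adam8, gained, chr7:139992563-139992812, minus strand: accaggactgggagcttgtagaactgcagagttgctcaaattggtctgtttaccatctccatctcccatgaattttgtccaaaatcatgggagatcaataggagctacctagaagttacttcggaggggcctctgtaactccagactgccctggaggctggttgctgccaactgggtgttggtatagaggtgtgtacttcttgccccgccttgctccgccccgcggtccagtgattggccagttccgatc
Tmem231, lost, chr8:111933814-111934063, minus strand: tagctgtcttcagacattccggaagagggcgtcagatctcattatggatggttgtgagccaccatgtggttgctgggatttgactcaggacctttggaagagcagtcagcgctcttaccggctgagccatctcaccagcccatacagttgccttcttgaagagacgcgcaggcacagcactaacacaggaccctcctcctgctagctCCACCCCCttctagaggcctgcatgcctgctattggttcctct
Castor2, lost, chr5:134099498-134099747, plus strand: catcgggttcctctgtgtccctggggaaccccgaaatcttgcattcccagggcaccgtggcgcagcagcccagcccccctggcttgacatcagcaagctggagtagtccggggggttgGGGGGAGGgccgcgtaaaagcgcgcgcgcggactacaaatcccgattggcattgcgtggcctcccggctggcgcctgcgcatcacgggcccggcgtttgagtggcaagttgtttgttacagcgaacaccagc
Kit, lost, chr5:75574737-75574986, plus strand: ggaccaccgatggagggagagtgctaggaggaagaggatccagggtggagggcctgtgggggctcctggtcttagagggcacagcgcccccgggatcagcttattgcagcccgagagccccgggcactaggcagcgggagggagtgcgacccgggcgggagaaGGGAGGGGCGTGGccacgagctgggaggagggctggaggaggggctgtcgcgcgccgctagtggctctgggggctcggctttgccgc
Irf4, lost, chr13:30748983-30749232, plus strand: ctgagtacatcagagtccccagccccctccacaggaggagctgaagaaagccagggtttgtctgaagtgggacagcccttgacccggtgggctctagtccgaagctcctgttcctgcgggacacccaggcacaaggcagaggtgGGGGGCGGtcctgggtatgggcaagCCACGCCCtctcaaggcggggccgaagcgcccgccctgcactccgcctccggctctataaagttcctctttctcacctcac
Klf4, called in all 4 libraries, chr4:55532476-55532725, minus strand: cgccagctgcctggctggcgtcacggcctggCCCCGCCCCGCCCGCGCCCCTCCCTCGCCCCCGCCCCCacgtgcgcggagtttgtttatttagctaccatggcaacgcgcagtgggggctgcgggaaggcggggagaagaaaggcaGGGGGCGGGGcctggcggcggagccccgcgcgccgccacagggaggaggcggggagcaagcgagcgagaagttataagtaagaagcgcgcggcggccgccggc

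The KLF motif was matched 7 times before Git1, 9 times before Klf4, 2 times each before Tet2, Kit and Irf4, 1 time each before Tmem231 and Castor2, and nowhere in the 250 bases before Adam8. The GC content of these stretches ran from 52.8% before Adam8 to 83.6% before Tet2. Promoters also picked by strength but not printed were those of 2510039O18Rik and Cplane2, gained, and Ddx47, lost. They held 6, 0 and 0 matches in that order. The matches are letters in a window and say nothing on whether KLF4 was bound there.

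RefSeq gave 21045 promoter windows, each 250 bases before to 50 after a start of one of 17274 genes. Whole windows were used for overlap with regions, but motifs and GC content were read in the 250 bases before the start only. In those bases, 53.4% of all windows held CCNCNCCC on either strand. Among windows under a gained region it was 14 of 23, or 60.9% (95% interval 40.8% to 77.8%), and under a lost region 147 of 259, or 56.8% (50.7% to 62.6%). Under regions called in all 4 libraries the share was 68.4% (67.4% to 69.5%) of 7768 windows. The median GC content was 63.2% in windows under gained regions, 57.2% under lost regions, 62.0% under regions called in all 4 and 55.6% over every window, and its part in the motif shares was not tested. Other motifs were rare: PU.1 (GAGGAAGT) was found in 1 and 10 windows under gained and lost regions, RUNX (TGTGGT) in 2 and 34, C/EBP (TTGCNNAA) in 4 and 23, and AP-1 (TGANTCA) in 1 and 12. In the same order their shares over every window were 2.25%, 12.2%, 9.18% and 6.17%. A KLF match can share bases with a RUNX or PU.1 match.

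The lists themselves were shorter at 24h, and the difference lay mostly away from gene ends. They held 15104 and 14822 peaks at 24h, against 21895 and 19722 at 12h. Distal peaks, with a summit farther than 1 kb from either end of a protein-coding gene, numbered 7399 and 7014 at 24h, against 13165 and 11234 at 12h. Peaks within 1 kb of a gene end numbered 7705 and 7808 at 24h, against 8730 and 8488 at 12h. Neither measure overlapped between the times, and the distal count fell by 4993 peaks at 24h between the means, that near gene ends fell by 852.5. The share near a gene end was 51.8% ± 1.2 at 24h and 41.5% ± 2.2 at 12h (SD, n = 2 each; two-sided exact permutation p = 0.333, the smallest that 2 libraries against 2 allow). In sorted cells measured in bulk, fewer cells with a site open and a site less open in each cell cannot be told apart.

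**Figure D1:**
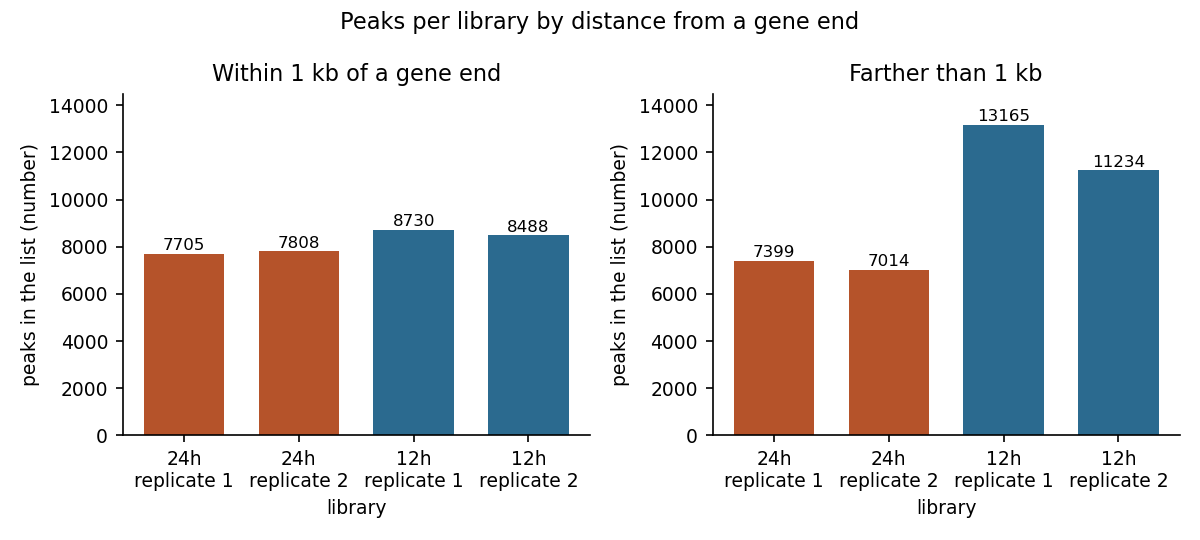
Number of peaks in each deposited list, within 1 kb of a gene end (left panel) and farther away (right panel), one bar per library, 24h in orange and 12h in blue. Distal peaks number 7399 and 7014 at 24h against 13165 and 11234 at 12h, a wider gap than that near gene ends.

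Total read counts were not used here, and the depth was read from the background pile-up that fold and p-value of each peak imply. It was 2.30 and 2.37 tags per kb at 24h, against 2.63 and 2.23 at 12h, and the groups overlapped. The part of depth in the length of the lists was not tested. Widths were close, with medians of 376 and 388 bp at 24h and 398 and 402 bp at 12h. When each list was cut to its 14822 strongest peaks by p-value, the share near a gene end was 51.5% and 52.7% at 24h, against 50.6% and 50.9% at 12h (two-sided exact permutation p = 0.333). The groups still did not overlap, but the gap between the means was 1.33 percentage points in place of 10.4.

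Lost regions outnumbered gained ones, by a margin that differed widely between ways of counting. Gained regions made up 0.450% and lost regions 8.38% of the 26662 merged regions. Put on the regions that each time agreed on, 120 of 11819 called in both 24h libraries were gained, or 1.02% (95% interval 0.850% to 1.21%), while 2234 of 16230 called in both 12h libraries were lost, or 13.8% (13.2% to 14.3%). At equal list length there were 494 gained and 624 lost regions, so that gained ones made up 44.2% of the changed regions in place of 5.10%. Of those 494, 381 overlapped a deposited 12h peak below the 14822 strongest, and 113 did not. Of the 624 lost ones, 11 overlapped a deposited 24h peak and 613 did not. Thus 113 of the 120 gained regions and 613 of the 2234 lost regions kept their class with lists of equal length. The cut took peaks mostly from the 12h lists, so it could hardly change the class of a gained region. With peaks of −log10 q of at least 5, 49 of the 120 gained regions and 1413 of the 2234 lost regions kept their class. With 1 library left out, which asks for agreement of fewer lists, the gained count ran from 295 without the second 12h library to 868 without the second 24h library, with 485 without the first 12h and 829 without the first 24h library. The lost count was highest, 6370, when the second 12h library was dropped. It was 4847 on dropping the first 12h library, and 3712 or 3601 on dropping the first or the second 24h library. As a share of the changed regions, gained ones were 18.3% or 19.4% when the first or the second 24h library was dropped, and 9.10% or 4.43% when the first or the second 12h library was.

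Regions between the classes were common. Another 544 regions had a peak in both 24h libraries and 1 of the 12h libraries, and 2841 had one in both 12h libraries and 1 of the 24h libraries. The mean within-list percentile of fold enrichment, a peak's rank in its own list, had a median of 28.9 for lost regions, 40.2 for those also called in 1 of the 24h libraries and 70.9 for those called in both. On the 24h side the medians were 21.7 for gained regions, 25.2 for those also called in 1 of the 12h libraries and 60.9 for those called in both. Changed regions were thus mostly weak peaks of the time that called them. Fold enrichment is the authors' value for each peak, and is compared within a list only. Gained regions had folds of 3.80 to 11.1 with a median of 5.83 in the first 24h library, and 3.68 to 11.5 with a median of 6.11 in the second. Lost regions had folds of 3.14 to 14.9 with a median of 6.56 in the first 12h library, and 3.47 to 13.1 with a median of 6.49 in the second. They were also narrow, with a median width of 313 bp for gained and 369 bp for lost regions, against 664 bp for regions called in all 4 libraries. A merged region spans the peaks of every list that calls it, so its width tends to grow with the number of lists. The part of this in the gap was not tested.

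Distal regions were lost more often than regions near gene ends, also among regions of like strength. Of the 7913 regions near a gene end that both 12h libraries called, 4.31% (95% interval 3.88% to 4.78%) were lost, against 22.8% (21.9% to 23.7%) of the 8317 distal ones. Ordered by mean percentile at 12h and cut into 4 equal groups, the weakest group lost 22.7% (20.2% to 25.4%) of its regions near gene ends and 41.7% (40.0% to 43.5%) of its distal regions. In the next group the shares were 6.30% (5.16% to 7.68%) and 19.3% (17.8% to 20.8%), and in the third 1.03% (0.696% to 1.54%) and 5.81% (4.81% to 7.01%). In the strongest group 2 of 3176 regions near gene ends and 5 of 882 distal regions were lost. The intervals cover counting error only. At equal list length the order was the same, with 1.49% (1.23% to 1.80%) of 6999 regions near gene ends and 9.97% (9.19% to 10.8%) of 5214 distal regions lost, and 5.36% against 17.2% in the weakest of 4 groups.

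**Figure D2:**
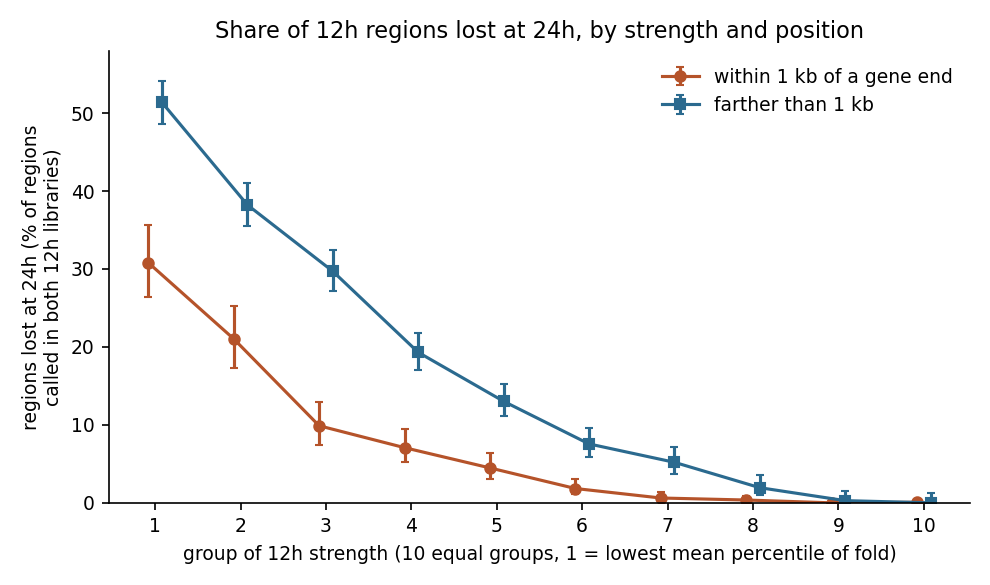
Share of the regions called in both 12h libraries that neither 24h library called (vertical axis, %), in 10 equal groups by their mean percentile of fold at 12h (horizontal axis, weakest first), near gene ends in orange and distal in blue, with Wilson 95% intervals. In the weakest group 30.8% of the regions near gene ends and 51.4% of the distal regions are lost, and in the strongest group 1 of 1334 and 0 of 289.

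Gained regions, too, lay near gene ends less often than kept ones. Within 1 kb lay 24.2% (95% interval 17.4% to 32.6%) of gained regions and 15.3% (13.8% to 16.8%) of lost regions, against 61.5% (60.6% to 62.4%) of the regions called in all 4 libraries and 35.3% of every region. The gained share was 38.9% with fixed windows around summits and 14.4% without the second 24h library, and the lost share was 23.5% when a library's peaks had to cover at least 50% of a region. Sites with no gene end within 100 kb made up 6 of the 120 gained regions and 266 of the 2234 lost regions, or 11.9% (10.6% to 13.3%), against 3.36% of those called in all 4 and 7.48% of every region. A promoter window of the RefSeq table lay under 21 gained regions and under 233 lost regions, or 10.4%, against 55.1% of those called in all 4. The share with a summit inside a gene was 60.8% (51.9% to 69.1%) of gained, 55.6% (53.5% to 57.6%) of lost and 54.3% (53.4% to 55.2%) of kept regions. By chromosome the lost share ran from 7.10% on chromosome 7 to 9.35% on chromosome 12, so that no chromosome stood far from 8.38%.

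The 0h and 6h lists were not used for the classes. Gained and lost regions had a peak in at least 1 of these lists in shares near that of every region. Each list by itself called both classes less often than every region. A peak at 0h or 6h overlapped 91 of the 120 gained regions, or 75.8% (95% interval 67.4% to 82.6%), and 1831 of the 2234 lost regions, or 82.0% (80.3% to 83.5%), against 81.4% of every region and 99.6% of those called in all 4. With 1 library left out the gained share ran from 52.2% to 89.3%, lowest without the first 24h library, and the lost share from 62.2%, without the second 12h library, to 87.2%. Gained regions were called in 60 and 36 cases by the 0h libraries and in 52 and 45 by the 6h libraries. Lost regions were called in 1321 and 769 cases by the 0h libraries and in 922 and 950 by the 6h libraries. As shares, the 0h libraries called 50.0% and 30.0% of gained, 59.1% and 34.4% of lost, and 68.7% and 52.3% of every region. The 6h libraries called 43.3% and 37.5% of gained, 41.3% and 42.5% of lost, and 59.4% and 60.9% of every region. All 4 earlier libraries called 9.17% of gained and 10.3% of lost regions, against 39.9% of every region. The second 0h library, lowest for both classes, also had the lowest background of the 8, at 1.50 tags per kb.

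**Figure D3:**
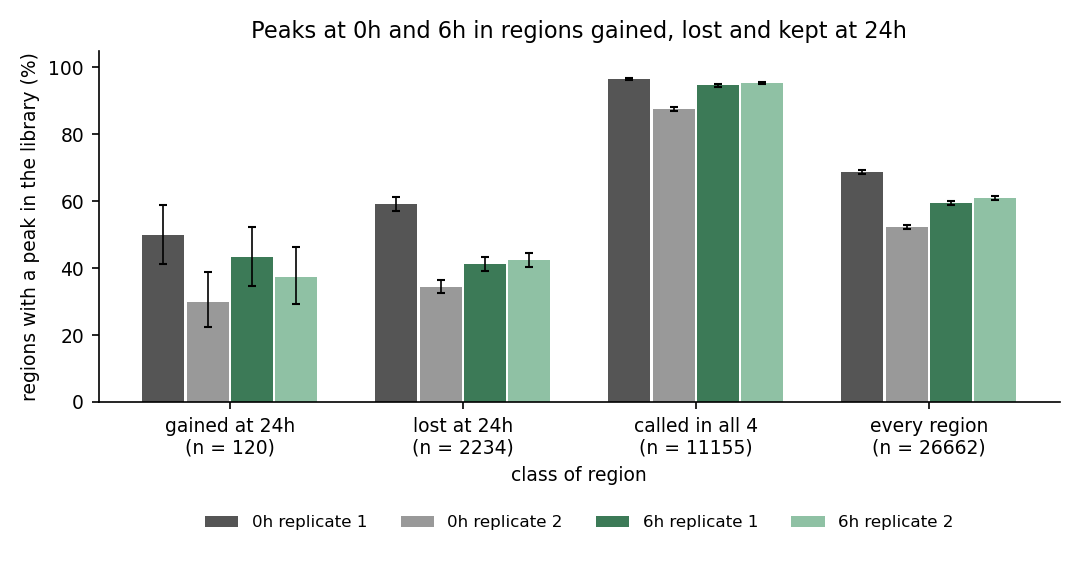
Percentage of regions with a peak in each 0h library (grey) and each 6h library (green), for regions gained at 24h, lost at 24h, called in all 4 libraries, and every region, with Wilson 95% intervals. Gained regions reach 30.0% to 50.0% and lost regions 34.4% to 59.1%, below the 87.7% to 96.6% of regions called in all 4 libraries. Every region reaches 52.3% to 68.7%, and in each library gained and lost regions lie below it.

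The more often a 12h region had been called before, the less often it was lost. Of the regions called in both 12h libraries, 68.7% (95% interval 64.8% to 72.3%) of the 587 that no earlier library called were lost at 24h. The share was 54.4% with 1 earlier library, 34.7% with 2, 16.4% with 3 and 2.24% (1.97% to 2.55%) of the 10257 that all 4 earlier libraries called. Strength was not held fixed in this count. In all, 403 lost regions were called at 12h only, and 230 had been called in all 4 earlier libraries. Of the gained regions, 29 were called at 24h only, and 11 were called in every library of 0h, 6h and 24h but in neither of 12h.

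The strongest gained region lay inside Ssh2 (chr11:77386263-77386619), which encodes a slingshot phosphatase that activates the actin-severing protein cofilin. Its fold was 10.8 and 10.4 at 24h, with no peak at 12h, and it had been called in both 0h libraries and neither 6h library. A second gained region inside Ssh2, 50.1 kb from an end of the gene, was called at 24h only, with folds of 7.67 and 6.42. Ssh2 was the gene with most gained regions, and also had 1 lost region among its 8.

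The region 34.0 kb from Raet1e, of a multigene family of ligands of the NK cell receptor NKG2D whose members share sequence, had folds of 8.87 and 11.5 at 24h (chr10:22223552-22224079). The region 3.37 kb from Nipal3 had folds of 8.50 and 11.2 (chr4:135439290-135439526), and the region at Git1 folds of 8.69 and 9.24 (chr11:77493031-77493342). Git1 encodes a scaffold with GTPase-activating function for ARF proteins, and its region covered the promoter printed above. Both the Nipal3 and the Git1 region were called in every library of the series except those at 12h.

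The next gained regions by strength lay inside 2510039O18Rik, 1.37 kb from an end (folds of 9.50 and 9.32 at 24h), inside Ebf2, a transcription factor of the early B cell factor family (11.1 and 6.99), and inside Ptk2b, the gene of the adhesion kinase PYK2 (7.88 and 9.51). After these came regions inside the forkhead gene Foxj3 (8.77 and 8.11), in a gene desert of chromosome 11, over 100 kb from any gene end (8.40 and 8.31), and 48.5 kb from Parp11, an ADP-ribosyltransferase gene (8.01 and 8.59). The region on chromosome 11 was called at 24h only, and the Ebf2 region was also called in 3 of the 4 earlier libraries. All 10 of these regions kept their class at equal list length and with peaks of −log10 q of at least 5, which their choice by strength makes likely.

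Regions called at 24h only, among 29 such, were led after that on chromosome 11 by one inside Atp2b4, a plasma membrane calcium pump gene (folds of 7.68 and 8.49), and one 2.52 kb from Pmaip1. Pmaip1 encodes NOXA, a pro-apoptotic protein of the BCL2 family, and the folds of its region were 8.81 and 7.03 at 24h. Another lay 31.7 kb from Socs3, a feedback inhibitor of cytokine signalling (7.47 and 6.67; chr11:117934269-117934479). At the other extreme, 11 regions had a peak in all 6 libraries of the other times and in neither of 12h. Among them were the promoters of Tet2, which encodes an enzyme that oxidises methylcytosine (5.56 and 7.60 at 24h; chr3:133544252-133544826), and of Adam8, a metalloprotease of leukocytes (5.95 and 8.31; chr7:139992335-139992863). Of these 11 regions, those at Nipal3 and Git1 had the highest mean percentiles at 24h, 63.2 and 55.3. The others ran from 11.7 for a site on chromosome 10 to 36.5, with 26.4 at Tet2 and 33.0 at Adam8.

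The strongest lost region covered the promoter of Tmem231 (chr8:111933561-111934069), a gene of the transition zone of cilia, with folds of 14.0 and 12.7 at 12h and no peak at 24h. Its mean percentile at 12h was 91.3, and all 4 earlier libraries had called it. Of the 1334 regions near gene ends in the strongest of 10 equal groups at 12h, it was the 1 that was lost. The promoter region of Castor2, which encodes a protein that acts upstream of mTORC1, had folds of 12.1 and 10.5 at 12h (chr5:134099272-134099979), and all 4 earlier libraries had called it as well.

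Away from promoters, a region 81.5 kb from Rgs1, whose product restrains G-protein signalling in leukocytes, had folds of 11.3 and 12.9 at 12h (chr1:144330410-144330821). One 56.5 kb from the chemokine gene Cxcl14 had folds of 12.2 and 10.9 (chr13:56352658-56353601). Both had been called in all 4 earlier libraries, as had the region inside Baiap3 nearest to Tsr3 (12.7 and 10.0). The others of the 10 strongest lost regions lay 9.27 kb from Fibcd1 (11.4 and 11.7), in a like desert of chromosome 4 (11.4 and 11.6), inside Gm13277 (14.9 and 9.37), 43.9 kb from the kinase gene Map4k3 (10.0 and 13.0) and inside Apold1 (9.82 and 13.1). All 10 kept their class at equal list length and with the higher q-value limit.

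Several genes had more than 1 lost region. Mbd2, which encodes a protein that binds methylated CpG, had 4 lost regions of 9, at 6.54 to 60.6 kb from an end, of which 1 kept its class at equal list length. Tanc1 had 4 lost of 5, none of them kept at equal length, and Il20rb, a chain of receptors for cytokines of the IL-20 group, had 4 lost of 5 with 1 kept. Magi1 and Ahi1 had 3 lost of 7 each, with 1 kept each. None of these 5 genes had a gained region.

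Of the Klf4 gene itself (chr4:55527137-55532475), 2 regions were called in all 4 libraries. The region inside the gene (chr4:55530259-55530909) had folds of 6.12 and 5.26 at 24h, against 6.05 and 7.57 at 12h. The region at its start (chr4:55532429-55533024), over the promoter printed above, had folds of 7.38 and 7.28 at 24h, against 8.51 and 4.61 at 12h. The percentiles within the lists were 21.6 and 10.1 at 24h against 22.5 and 41.7 at 12h inside the gene, where the groups were just apart, and 38.7 and 35.3 at 24h against 53.4 and 4.58 at 12h at its start, where they overlapped. These percentiles move with list length, and the 24h lists were the shorter ones. The part of list length in the gap inside the gene was not tested. A region 91.1 kb away was lost (chr4:55623433-55623701; 5.25 and 7.68 at 12h). The transgene shares exons with the gene, so exonic peaks cannot be assigned to either copy, and the lists hold no measure of Klf4 expression.

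Myeloid identity could be read from the peak lists only in part. Of 10 marker genes of these leukaemia cells, 8 had a peak inside them or up to 10 kb outside in each 24h and each 12h library. Csf1r lacked a peak in all 4, Kit, the receptor for stem cell factor, lacked one in both 24h libraries, and Mpo, the myeloperoxidase gene, in both 12h libraries. Of 16 B lineage markers, 6 and 7 had a peak at 24h, against 11 and 10 at 12h, with Ms4a1 and Pou2af1 without a peak in all 4. Of 16 stromal and endothelial markers, 2 and 4 had a peak at 24h, against 7 and 6 at 12h, with Kdr, Tek and Emcn without one in all 4. For T and NK markers it was 7 and 8 of 18 at 24h, against 9 and 9 at 12h, for megakaryocyte markers 9 and 10 of 16 at 24h, against 10 and 10 at 12h, and for erythroid markers 4 and 5 of 15 at 24h, against 4 and 4 at 12h. The 24h lists are the shorter ones, and the part of these shifts in the results was not tested.

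The gene lists describe where the changes fell by known function. Over all 12881 protein-coding genes with a region, 113 had a gained one, or 0.877%, and 1797 a lost one, or 14.0%. Genes with many regions have more chances of a lost one, so the shares of regions are given as well, against 0.462% gained and 7.98% lost over the 24668 regions with a gene end within 100 kb. Across the 16 lists, 7 genes had a gained and 58 a lost region, and at equal list length 17 and 20.

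**Figure D4:**
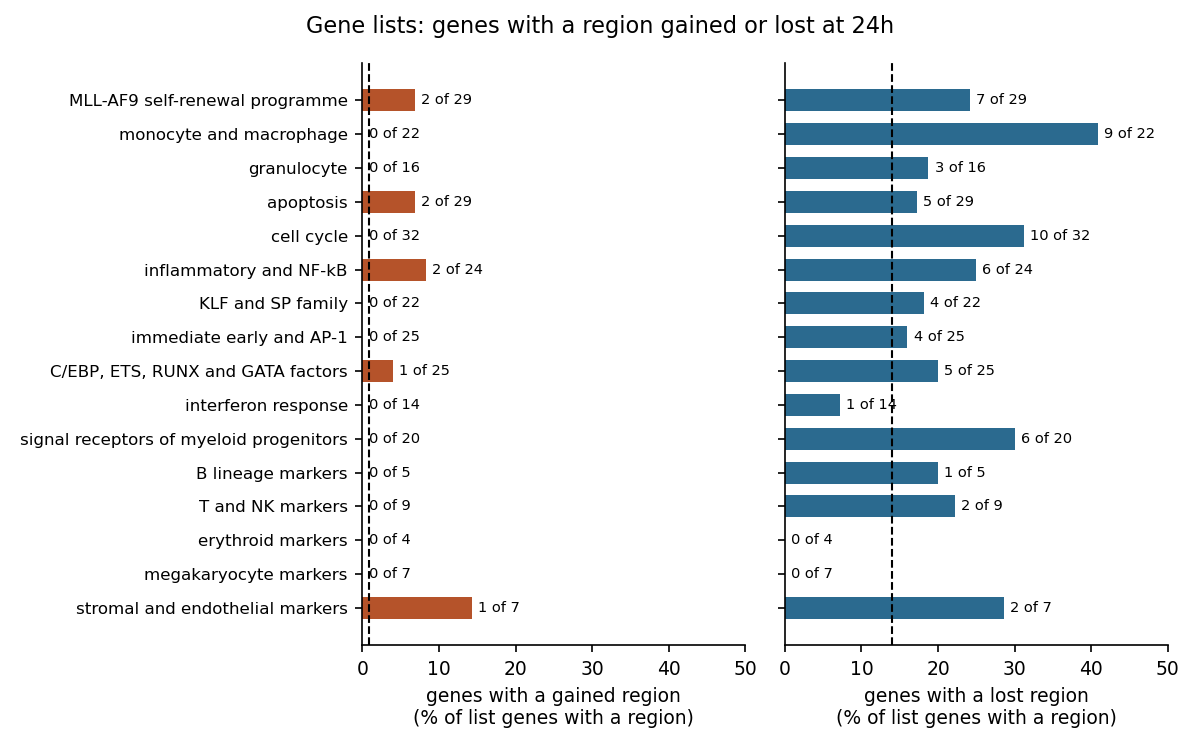
Percentage of the genes of each list that have a gained region (left panel, orange) or a lost region (right panel, blue) at 24h, of those with any region, with the counts beside the bars. Dashed lines give the shares over all 12881 genes, 0.877% and 14.0%, and the bars rest on 0 to 2 gained and 0 to 10 lost genes each.

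Monocyte and macrophage genes had the highest share of genes with a lost region, 9 of 22, and 0 with a gained one. By region it was 11 of 76, or 14.5%. The strongest lay 22.6 kb from Irf8, a transcription factor of monocyte development, with folds of 9.91 and 9.20 at 12h (chr8:120779186-120779429), and it was called in both 6h libraries and neither 0h library. The chemokine receptor gene Ccr2 had 2 lost regions (6.61 and 9.53, and 5.55 and 4.61), the scavenger receptor gene Cd36 had 1 (8.78 and 7.06), and the lectin gene Clec12a had 1 (8.05 and 6.97), called at 12h only. Those of Irf8, Cd36 and Clec12a kept their class at equal list length, and those of Ccr2 did not. Granulocyte genes had 3 of 16 with a lost region, Ltf (7.81 and 9.62), Mmp9 (6.09 and 7.57) and Ctsg (6.26 and 6.87), all genes of granule proteins, and 0 gained. Of the 3, Ltf kept its class at equal length.

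Of the 29 self-renewal genes of MLL-AF9 leukaemia that had a region, 7 had a lost and 2 a gained one. By region the lost share was 10 of 132, or 7.58%, close to that over all genes. The promoter region of Kit (chr5:75574875-75575161) had folds of 8.59 and 6.06 at 12h and no peak at 24h, and was called in 1 of the 0h libraries and both 6h libraries. It did not keep its class at equal list length. Cd93, a surface antigen of leukaemia stem cells, lost 2 regions, of which that 48.8 kb away (10.7 and 9.40 at 12h; chr2:148492161-148492406) kept its class. Zeb2 lost 2 (9.61 and 5.10, and 6.32 and 6.17), Runx1 1 (6.86 and 6.20). None of these 3 kept its class at equal length. The gained regions lay 1.80 kb from Myc (7.91 and 7.29 at 24h; chr15:61983408-61983632) and inside Runx1 (5.72 and 5.83; chr16:92752030-92752408), each called in 1 of the 0h libraries and neither 6h library. Both kept their class, which the cut to equal length could hardly change for a gained region.

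Among 29 apoptosis genes, 2 had a gained region and 5 a lost one. Besides that of Pmaip1, a gained region lay 191 bp from Bcl2a1d, a gene of an anti-apoptotic BCL2 relative with near-identical copies, so the placement of its reads is uncertain (6.66 and 5.10 at 24h). A lost region lay 192 bp from an end of the initiator caspase gene Casp8 (7.69 and 8.14 at 12h; chr1:58795321-58795664). Another lay 63.1 kb from Bcl2l11, which encodes the pro-apoptotic protein BIM, and inside the gene Acoxl (7.72 and 6.91). Others lay 5.42 kb from Tnfsf10 and 8.64 kb from an end of Bik. Those of Casp8 and Bcl2l11 kept their class at equal length. Genes that promote and genes that restrain cell death were both among them, and the lost share of the list's 70 regions was 7.14%.

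Cell cycle genes had 10 of 32 with a lost region and 0 with a gained one, and 11 of 79 regions lost, or 13.9%. They were led by Ccnd3, which encodes cyclin D3 (10.3 and 6.62 at 12h), the proliferation marker Mki67 (8.03 and 6.75), Cdkn2b, an inhibitor of CDK4 and CDK6 (7.72 and 6.90), and Rbl2, a relative of the retinoblastoma protein (8.93 and 5.10). The first 3 kept their class at equal length. The 11 lost regions lay 7.82 to 97.3 kb from the nearest gene end.

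Of 24 inflammatory and NF-kB genes, 6 had a lost and 2 a gained region, and 9 of 58 regions, or 15.5%, were lost. The region 345 bp from Irak3, a brake on Toll-like receptor signalling, had folds of 8.31 and 12.1 at 12h (chr10:120140881-120141388) and had been called in all 4 earlier libraries. Nfkb1, which encodes the p50 subunit of NF-kB, lost 2 regions inside the gene (9.93 and 6.53, and 7.53 and 6.78), and the chemokine gene Ccl3 lost 1 (7.46 and 8.92). All 4 of these kept their class at equal length. Tnfaip3, which encodes the NF-kB inhibitor A20, lost 2 regions and gained 1 (3.92 and 4.96 at 24h), none of which kept its class.

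Transcription factor lists are given next. In the KLF and SP family 4 of 22 genes had a lost region, Klf13, Klf4, Klf14 and Klf6, 56.7 to 91.1 kb away, with 12h folds of 5.07 to 8.54, and 0 kept at equal length. Immediate early and AP-1 genes had 4 of 25, Jun, Fosl1, Zfp36 and Ier2, with folds of 3.67 to 7.97, and that of Fosl1 was kept. Among C/EBP, ETS, RUNX and GATA factors 5 of 25 had a lost region, Etv6, Runx1, Ets2, Gata2 and Elf4 (4.96 to 9.99), and Runx1 the gained one. By gene the lost share was 18.2% for the KLF and SP family and 16.0% for the immediate early genes, against 14.0% over all genes, which the 5 of 25 of the last list also exceeded. By region the lost shares of these 3 lists were 7.41%, 5.00% and 4.35%, against 7.98% over all regions. These differences were not tested. Signal receptors of myeloid progenitors had 6 of 20, with Tgfbr2 (9.52 and 6.36), Notch2 (6.85 and 8.69), Csf2ra (9.42 and 6.13) and Csf2rb (7.02 and 6.38) besides Ccr2 and Kit, and that of Notch2 was kept at equal length. By region it was 8 of 66, or 12.1%. The interferon list had 1 of 14, Cxcl10 (8.39 and 5.29).

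Outside these lists, the lost promoter region of Irf4, a transcription factor of lymphoid and myeloid cells, had folds of 8.55 and 9.98 at 12h (chr13:30749111-30749320). It was called in both 0h libraries and neither 6h library. Markers of other cell types added few genes: Pax5 of the B lineage (7.61 and 6.42 at 12h), Lef1 (7.50 and 8.91) and Eomes (5.35 and 5.19) of T and NK cells, and the stromal genes Pdgfrb (7.13 and 6.46) and Lepr (7.77 and 5.08) had a lost region. The endothelial gene Pecam1 had a gained one (5.59 and 4.60 at 24h). No region was gained or lost at the 4 erythroid and 7 megakaryocyte genes that had any.

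Regions called at both times were compared by rank, since folds of different libraries are not on one scale. Among the 11155 regions called in all 4 libraries, each region's rank by fold was turned into a normal score, and limma fitted to all of them gave 0 regions higher and 0 lower at 24h at an adjusted p under 0.05 (smallest adjusted p = 0.724). Before adjustment 331 were higher, or 2.97%, and 417 lower, or 3.74%. Both 24h libraries ranked 2189 regions, or 19.6%, above both 12h libraries, and 1958, or 17.6%, below. On percentiles within the whole lists, the scale that list length moves, 90 were higher and 1198 lower before adjustment and again 0 after it. Spearman's rho across these regions was 0.745 between the 24h libraries and 0.734 between the 12h libraries, against 0.704 to 0.715 between libraries of different times. Regions are not independent replicates.

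Shared regions near gene ends stood somewhat higher among the ranks at 24h. Their median rank percentile was 60.8 and 61.8 at 24h, against 59.1 and 60.0 at 12h, and that of distal regions was 33.3 and 31.2 at 24h, against 35.5 and 34.1 at 12h. Neither pair overlapped between the times. The median score difference, 24h minus 12h, was 0.052 for 6862 regions near gene ends and -0.031 for 4293 distal ones. Before adjustment 3.29% of the regions near gene ends were higher and 3.05% lower, and 2.45% of the distal ones were higher and 4.85% lower.

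The region that fell furthest by the test statistic lay at an end of Tsfm, which encodes a mitochondrial translation elongation factor (chr10:127030381-127030977). Its rank percentile was 7.30 and 3.72 at 24h, against 68.8 and 87.3 at 12h, a score difference of -2.43 with a standard error of 0.457 (limma, adjusted p = 0.724). The region at Osbpl5 stood at 0.260 and 5.61 at 24h, against 79.4 and 54.2 at 12h. Other regions at this end were those of Gm30679, the kinase gene Grk5, Tox2 and Mtnr1b, and sites on chromosomes 10 and 12 with no gene end within 100 kb. In all 10 both 24h values lay below both 12h values, as the choice by test statistic makes likely, and none passed the adjusted test.

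At the other end, the region inside Akap9, which encodes an anchoring protein of the centrosome and Golgi, stood at 15.5 and 17.8 at 24h, against 0.224 and 0.170 at 12h (chr5:3928018-3928533). The region at Ehmt1, a histone H3 lysine methyltransferase gene, stood at 98.6 and 91.7 at 24h, against 49.99 and 37.5 at 12h (chr2:24919060-24919932). That at Orc6, of the origin recognition complex, stood at 99.3 and 97.8 at 24h, against 70.2 and 61.5 at 12h (chr8:85299110-85299948), and that at Kif23, a kinesin of cytokinesis, at 93.6 and 96.6 at 24h, against 50.5 and 50.8 at 12h. The others were at E030030I06Rik, Dgkd, Dda1, Fbxl14, Pias2 and Spata13. Of the 10 regions at this end 8 lay within 1 kb of a gene end, against 3 of the 10 that fell, while 61.5% of all shared regions did, and the adjusted p was 0.724 for each of the 20.

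**Figure D5:**
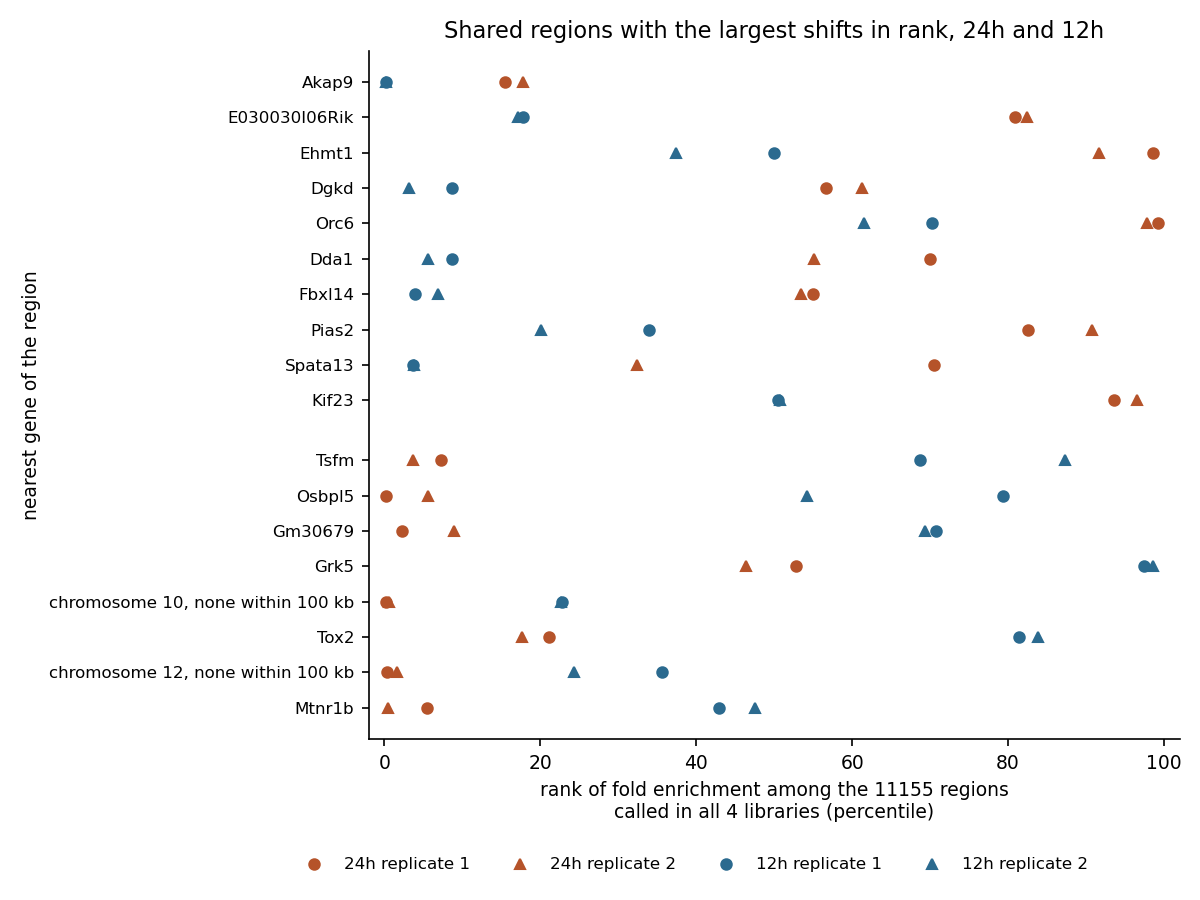
Rank percentile of fold enrichment among the 11155 regions called in all 4 libraries (horizontal axis) for the 10 regions with the largest rise (upper rows) and 8 of the 10 with the largest fall (lower rows) at 24h, one row per region, named by its nearest gene, 24h in orange and 12h in blue, circles for replicate 1 and triangles for replicate 2. The values of the times lie apart in each row, such as 7.30 and 3.72 at 24h against 68.8 and 87.3 at 12h at Tsfm, and none passed the adjusted test.

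Within the gene lists, 0 shared regions passed after adjustment, and a few had an unadjusted p under 0.05. Immediate early and AP-1 genes had 4 of 44 shared regions higher, at Ier2, Ier3, Maff and Junb, or 9.09%, and 0 lower, against 2.97% higher and 3.74% lower over all shared regions. Ier2 also had a lost region, 351 bp from an end of the gene. The region at Ier3 stood at 3.79 and 12.2 at 24h, against 0.287 and 0.493 at 12h, and that inside Maff at 30.3 and 48.2 at 24h, against 14.7 and 2.69 at 12h. The shared region inside Ier2 stood at 3.51 and 10.9 at 24h, against 1.24 and 0.143 at 12h. That near Junb stood at 1.42 and 1.94 at 24h, against 0.0896 and 0.108 at 12h. Those of Ier2, Ier3 and Junb lay at the bottom of the 12h ranks, where small shifts in rank make large ones in normal score. In the self-renewal programme 3 of 41 were higher and 3 lower. Myb had changes of both kinds, with a lost region inside the gene (folds of 6.06 and 6.14 at 12h; chr10:21153277-21153808), not kept at equal length, besides 2 shared regions that were higher. The shared Myb regions stood at 52.7 and 23.9 at 24h, against 8.38 and 7.79 at 12h inside the gene, and at 23.0 and 34.2 at 24h, against 10.6 and 1.43 at 12h for one 41 bp from an end of the gene, while a region 40.0 kb from Cdk6 stood at 50.1 and 13.9 at 24h, against 88.1 and 89.2 at 12h. A region 51 bp from an end of Irf8 stood at 64.3 and 58.1 at 24h, against 15.2 and 16.7 at 12h, in the opposite direction to its lost region 22.6 kb away. These regions were picked by an unadjusted p under 0.05 after their values were seen.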

How the data were processed

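ATAC-seq was read from 8 peak lists, 1 per library, called per sample with BWA, SAMtools and MACS2 on mm10, per the submitters' processing notes. What is not given in the sources here: versions, settings, duplicate removal and any shift of reads for the transposase. For each peak the authors deposited a fold enrichment over local background, a −log10 p-value, a −log10 q-value (from 2.00 upward) and a score, which was not used. Groups and replicate numbers came from the sample labels.

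Merging, ranking and gene assignment were done in Python 3.11.15 with pandas 2.3.3, and the fit across shared regions in R 4.3.3 with limma 3.58.1, with Benjamini-Hochberg adjustment over all 11155 regions. Merging and the rank fit were tested on simulated data. Genes were the 21631 protein-coding genes of RefSeq (GRCm38.p6). Distances run to the nearer gene end, since strand was at hand for only part of the genes, and a region was assigned, from its strongest summit, to the closest gene up to 100 kb away. Fold and p-value gave the background per library within a tolerance of 0.001 for at least 99.98% of the peaks of the lists. Shares carry Wilson 95% intervals, which hold counting error alone.

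The members and the 16 gene lists (377 entries, 375 matched) were chosen with earlier results of these data known. Named items were Klf4, the 10 strongest gained and lost regions, the 5 genes with most of each, up to 4 list members per direction, and the 10 largest rises and falls in rank, with exceptions said to be chosen after their values were seen. A few items named by this rule are left out of the text. Alternatives were lists of equal length, a −log10 q of at least 5, a cover of at least 50% of the merged region, windows of 100 bp on each side of summits, merging of all 8 lists, other rank scales, a replicate block, and each library left out.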

Additional observations from a re-analysis of the deposited data

How the results depend on the processing

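A list gives no signal where it has no peak, so a missing peak is no measure of closed chromatin. With 2 libraries a time no library-level test can give a p under 0.333. The gained count was 79 with −log10 q of at least 5, 494 with lists of equal length and 239 with windows around summits, and 295 to 868 with 1 library left out. The lost count was 624 with lists of equal length and 3601 to 6370 with 1 library left out. The number of regions called in all 4 libraries stayed between 7527 with a cover of at least 50% and 12630 without the second 24h library. The share of gained regions near a gene end was 32.6% with the cover rule, 38.9% with windows, and 14.4% to 29.5% with 1 library left out. The share of lost regions near a gene end was 18.0% with the q limit, 23.5% with the cover rule, 17.2% with windows, and 12.8% to 19.6% with 1 library left out. The share of gained regions called at 0h or 6h was 84.6% with the cover rule and 52.2% to 89.3% with 1 library left out. That of lost regions was 84.1% with lists of equal length, 87.9% with the cover rule, 79.6% with windows, and 62.2% to 87.2% with 1 library left out. List genes numbered 17 with a gained and 20 with a lost region at equal list length. Lists cut to equal length hold fewer peaks of the 12h libraries, and a library left out makes agreement easier. For the other shifts the cause was not tested.

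The rank test gave 0 regions in each direction under every scale, with a mean-variance trend and without each library (smallest adjusted p of 0.121 to 0.838). With the replicate number as a block it gave 0 and 0, with 293 higher and 381 lower at an unadjusted p under 0.05. No sign of pairing by number was seen: deviations of same-numbered libraries from their group means had a correlation of 0.0027 over 11155 regions. The labels do not say whether the numbers pair libraries, and this value cannot decide it. All 20 named gained and lost regions kept their class with lists of equal length and with the q limit, but of all regions 113 of 120 gained and 613 of 2234 lost ones did with equal lengths, and 49 of 120 and 1413 of 2234 with the q limit. The cut to equal length took peaks mostly from the 12h lists, so it could hardly change the class of a gained region. The difference in peaks per library, 24h minus 12h, was -5845.5 as deposited and -5115.5 with the q limit.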
